A study of Mus musculus with 8 samples.

Results

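Expression of 27 genes of GABA signalling was examined in mouse tissue labelled as hippocampal CA1, out of 34094 genes in the table. They were taken by name from a list that covers receptor subunits, the proteins that anchor and traffic receptors, GABA uptake and breakdown, and chloride transport. RNA-seq libraries came from mice of 2 months that are labelled as C57BL/6. Whether all of them shared one background within C57BL/6 was not tested, and the level of Nnt, a marker of substrain, is given below. The titles name hippocampus, while the tissue labels name its CA1 field. The cKO group, whose labels read "cko type" and "Brpf1 knockdown", and the WT group have 4 libraries each. Brpf1 encodes a scaffold of histone acetyltransferase complexes, and the comparison asks what its loss in the hippocampus does to gene expression. The sources used here do not give the Cre line, the removed exons, the sex of the mice or which mouse gave which library. The p-values therefore set the difference between the groups against the variation between these libraries, and part of that variation may be technical. One protocol speaks of 3 pairs of mice, fewer than the libraries would need at 1 mouse each. If some libraries shared a mouse, the p-values could be too small.

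GABA is the main inhibitory transmitter of the adult hippocampus. It opens GABA-A receptors, pentameric chloride channels with subunits from several gene families, and it activates GABA-B receptors, which signal through G proteins to potassium and calcium channels. Gephyrin and its partners hold GABA-A receptors at the inhibitory postsynapse, transporters and enzymes clear the transmitter, and the balance of chloride import and extrusion sets the driving force of the current. Other subunit genes were not analysed here, except Gabre, Gabrq, Gabrr1, Gabrr2 and Gabrr3, which were counted in a separate list of other GABA genes.

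Levels are given as normalized reads, which are read numbers scaled by each library's size factor. Fold changes are cKO over WT on the log2(normalized reads + 1) scale, fitted by limma over 26135 genes with Benjamini-Hochberg adjustment. The libraries held 40330226 to 46559795 reads on genes in cKO and 42346644 to 49897832 in WT (two-sided exact permutation p = 0.286). Genes with at least 1 read numbered 25476 to 26587 in cKO, below the 26634 to 27549 of WT (exact permutation p = 0.0286, the smallest 4 against 4 allows). Brpf1 (ENSMUSG00000001632) had 848, 1032, 897 and 1004 normalized reads in cKO replicates 1 to 4, against 1358, 1451, 1473 and 1380.1 in WT. It lay lower in every cKO library, with a log2 fold change of −0.59 (SE 0.089, adjusted p = 0.132). CA1 markers were present in every library: the 6 listed genes summed to 18229 to 23657 normalized reads in cKO and 14361 to 22493 in WT, and none was at 0. Markers of neighbouring tissue were present too: 8 genes of CA3 and CA2 summed to 14819 to 17573 normalized reads in cKO and 14189 to 17583 in WT, and 6 thalamus genes to 4736 to 5707 in cKO and 5263 to 6162 in WT. The 12 choroid plexus genes summed to 19428 to 71139 normalized reads in cKO and 12342 to 240761 in WT, and the 7 dentate granule genes to 9933 to 13641 in cKO and 11466 to 15128 in WT. All 6 thalamus genes and 6 of the 7 dentate granule genes had a lower mean log2 value in cKO. Their median log2 fold changes were −0.24 and −0.095. Of the CA1 genes 3 of 6 were lower, and of the CA3 and CA2 genes 4 of 8. Thalamus and dentate content entered no fit. Bulk RNA cannot tell fewer cells of a type from less RNA per cell.

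Among the 27 genes, all of which passed the filter on low values, 20 had a higher mean log2 value in cKO and 7 a lower one, mostly by small amounts; Gabra4, Gabrb2, Gabrd and Gabarap, counted among the 20, turned lower with quantile normalization. The share higher was 74.1% of the members, 47.3% of all tested genes and 55.5% of the 12542 tested genes with a mean of at least 200 normalized reads, a level that every member reached. With quantile normalization, 16 members were higher, where 51.3% of all tested genes were. With the neuron markers as a term in the fit, 14 members were higher, where 49.4% of all tested genes were. The lowest values relative to WT belonged to Gabrg1, Gabra2 and Slc12a2, at 67.9%, 66.9% and 69.6% of the WT mean, and the highest to Gabbr2, at 123%. No member passed an adjusted p of 0.05, a threshold that 0.0191% of all tested genes passed. At an unadjusted p of 0.05 there were 4 higher members (Gabbr2, Gabra3, Gabarapl1 and Gabarapl2) and 1 lower (Slc12a2), where 4.07% of all tested genes were higher and 4.6% lower. For Gabarapl1 and Gabarapl2 every cKO library lay above every WT library, and for Slc12a2 below, which holds for 2.57% and 2.35% of all tested genes in those directions; with quantile normalization Gabarapl2 overlapped. The median log2 fold change of the members was 0.08, against −0.02 over all tested genes and 0.02 over those with at least 200 normalized reads. In the authors' deposited table, Slc12a2 alone was past an FDR of 0.05 in the lower direction, as were 0.305% of all genes, and no member was past it in the higher direction, where 0.352% of genes were. The members at an unadjusted p of 0.05, in either direction, made up 18.5%, against 8.67% of all tested genes. Of the 12542 genes with at least 200 normalized reads, 11.1% were at that p, 870 higher and 524 lower. The count of members at that p moved with single libraries, as did the share of all genes. It was 9 without cKO replicate 1 (11.3% of all genes) or without WT replicate 3 (10.6%). It was 1 without cKO replicate 3 (6.33%), 2 without WT replicate 2 (6.58%), and 3 without cKO replicate 4 (7.14%) or WT replicate 4 (6.73%). The count without overlap was 7 without cKO replicate 1 or WT replicate 3, where 10.97% of all genes had none in each case. It was 5 without cKO replicate 2 (9.39%). With all libraries it was 3, a share of 11.1%, against 4.92% of all tested genes and 6.28% of those with at least 200 normalized reads.

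**Figure D1:**
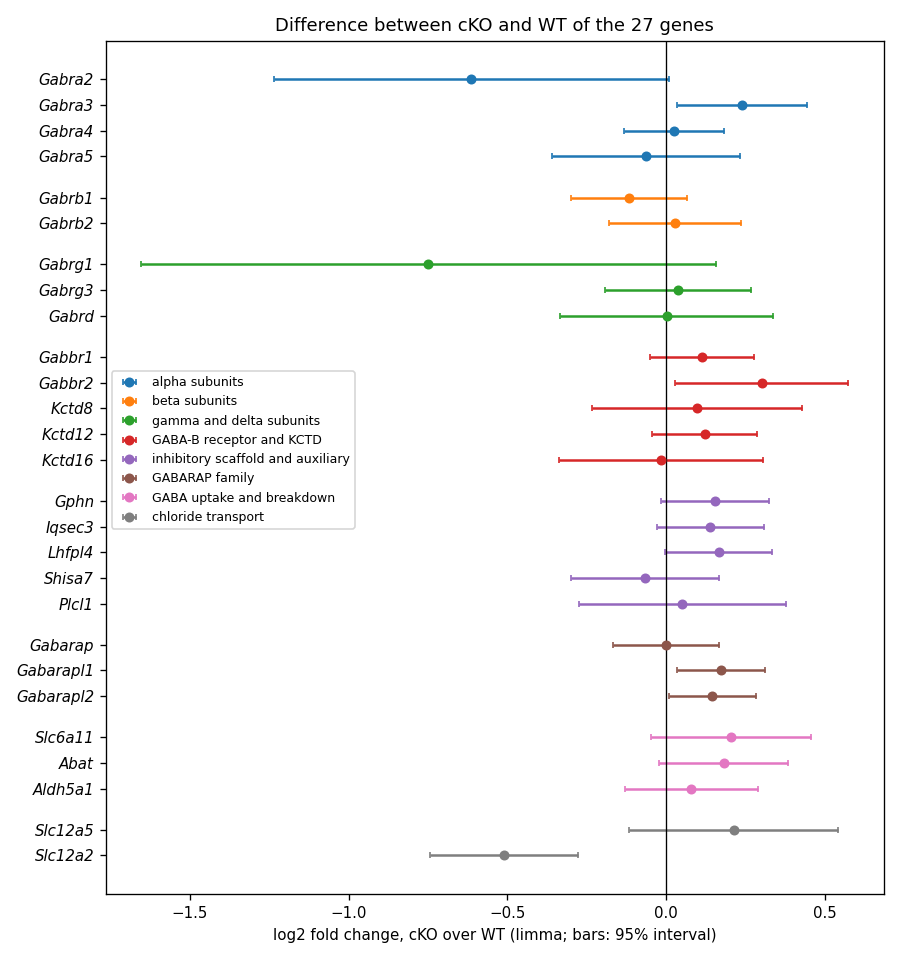
Log2 fold change of each of the 27 genes, cKO over WT, with its 95% interval from limma, coloured by role. Most points lie between −0.12 and 0.30, and Gabra2, Gabrg1 and Slc12a2 stand to the left of that range at −0.61, −0.75 and −0.51.

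Alpha subunits take part in forming the GABA binding site and largely set where a receptor sits and how it responds to drugs. Gabra5 encodes the subunit of mostly extrasynaptic receptors that are typical of hippocampal pyramidal cells. Its level was 7303, 9511, 6549 and 8892 normalized reads in the cKO replicates, against 8359.9, 7596, 10165 and 7464 in the WT replicates, with broad overlap of the groups and a log2 fold change of −0.06 (SE 0.134). Per kb of exon, Gabra5 made up 49.0% ± 6.26 of the sum of the 4 alpha genes in cKO and 48.7% ± 2.06 in WT (SD, n = 4 each), more than any other of them in each library. Gabra3, a subunit of synaptic and extrasynaptic receptors, had 4651, 3554, 4290.4 and 4325 normalized reads in cKO, against 3894, 3449.7, 3399 and 3471 in WT. Of the cKO libraries, 3 lay above every WT library and replicate 2 lay among them. The log2 fold change was 0.24 (SE 0.092, unadjusted p = 0.0266, adjusted p = 0.528), and the unadjusted p stayed under 0.05 in 9 of 18 alternative settings. Gabra4, a partner of the delta subunit in extrasynaptic receptors, ranged from 5776 to 6592 normalized reads in cKO and from 5865 to 6550 in WT (log2 fold change 0.02, SE 0.071).

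Gabra2, an alpha subunit found at synapses, among them those on the axon initial segment, gave the widest spread of the alpha genes and is shown in full for that reason, a choice made after its values were seen. It had 8310.1, 3711, 4565 and 4568 normalized reads in cKO replicates 1 to 4, against 8023, 7603, 10493 and 5500.5 in WT replicates 1 to 4. In cKO, replicate 1 reached the WT range while the other 3 libraries lay below every WT library. The log2 fold change was −0.61 (SE 0.271, unadjusted p = 0.0523, adjusted p = 0.581), and −0.85 (unadjusted p = 0.00148, adjusted p = 0.252) without cKO replicate 1. It was −0.47 without cKO replicate 2 (unadjusted p = 0.141) and −0.46 without WT replicate 3 (unadjusted p = 0.134). For Gabra2 the unadjusted p was under 0.05 in 5 of 18 alternative settings. Its share of the 4 alpha genes per kb was 19.2%, 8.59%, 12.1% and 10.4% in cKO replicates 1 to 4, against 17.7%, 18.4%, 20.7% and 14.0% in WT. The shares show the same library apart from the rest of its group.

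Of the beta subunits, which complete the GABA site and bind gephyrin and clathrin adaptors, Gabrb1 had 12908, 10973, 10642 and 11128 normalized reads in cKO and 13462, 11432, 12782 and 11784 in WT. The groups overlapped (log2 fold change −0.12, SE 0.083, unadjusted p = 0.187). Gabrb2 ranged from 4650.1 to 6104 in cKO and from 5099 to 5515 in WT (log2 fold change 0.03, SE 0.093). The gamma and delta subunits, together with the alpha subunits, take part in setting synaptic or extrasynaptic placing. Gabrd, the delta subunit of tonic inhibition, had 1038 ± 217 normalized reads in cKO and 1018 ± 62.0 in WT (SD, n = 4 each), with cKO replicate 1 apart at 716. Gabrg3 had 1199 ± 142 in cKO and 1165 ± 81.7 in WT (log2 fold change 0.04, SE 0.104). For Gabrd and Gabrg3, the sign of the difference turned in some alternative settings.

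Gabrg1, a gamma subunit that is expressed in restricted brain regions and in some glia, differed most between cKO libraries. It had 1651, 1372, 588 and 479.7 normalized reads in cKO replicates 1 to 4, against 1639.5, 1349, 1526 and 1513 in WT replicates 1 to 4. In cKO, replicates 1 and 2 lay at the WT level, and replicates 3 and 4 lay at less than any WT library. The log2 fold change was −0.75 with a wide 95% interval of −1.65 to 0.16 (unadjusted p = 0.0926, adjusted p = 0.615), −1.04 without cKO replicate 1 and −0.45 without cKO replicate 4. Summed neuron markers, 8 of 8 detected with none at 0, were 361512, 370746, 400493 and 401890 normalized reads in cKO replicates 1 to 4. They were 367409, 330557, 378704 and 345157 in WT. In cKO the sum was highest in replicates 3 and 4, while in WT replicate 2 had both the lowest sum and the lowest Gabrg1. Of the 8 neuron markers, 7 had a higher mean log2 value in cKO. With the neuron markers as a term in the fit, the log2 fold change of Gabrg1 was −0.13 (unadjusted p = 0.719), and with the oligodendrocyte markers as a term −1.29 (unadjusted p = 0.0114). Beyond these fits, the part of tissue content in the values of Gabrg1 was not tested.

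Gabrg1, Gabra2, Gabra4 and Gabrb1 stand close together in the genome, with Cox7b2 between Gabra2 and Gabra4. The genes beside and between them were therefore also looked at, a choice made after their values were seen. In the order of RefSeq's GRCm38.p6 annotation they run Guf1, Gnpda2, Gabrg1, Gabra2, Cox7b2, Gabra4, Gabrb1, Commd8 and Corin. The genes differed in their pattern by library. Of the cKO values of Gabra4 and Gabrb1, the one farthest from the WT mean was −0.21 on the log2 scale, while Gabra2 was low in cKO replicates 2, 3 and 4 and Gabrg1 in replicates 3 and 4. Relative to the WT mean, Guf1, at the outer end, had log2 values of 0.04, 0.27, −0.28 and −0.45 in cKO replicates 1 to 4, against 0.18, 0.09, −0.35 and 0.08 in WT, so that replicates 3 and 4 were the lowest in cKO, as for Gabrg1, and WT replicate 3 lay between them. Cox7b2 was also lowest in cKO in those libraries, but with few reads: 11.6, 12.0, 0 and 6.70 normalized reads in cKO, against 18.7, 12.2, 8.37 and 13.0 in WT. Gnpda2, an enzyme of glucosamine metabolism, is the neighbour of Gabrg1 on the other side. It had 829, 798, 774 and 784 normalized reads in cKO, against 1079, 945, 1017 and 1081 in WT, lower in each cKO library (log2 fold change −0.37, SE 0.084, unadjusted p = 0.0012, adjusted p = 0.359). Gabra4 and Gabrb1 share 46 exon bases on opposite strands, a small part of either gene. The sources used here do not say whether the counting used strand.

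**Figure D2:**
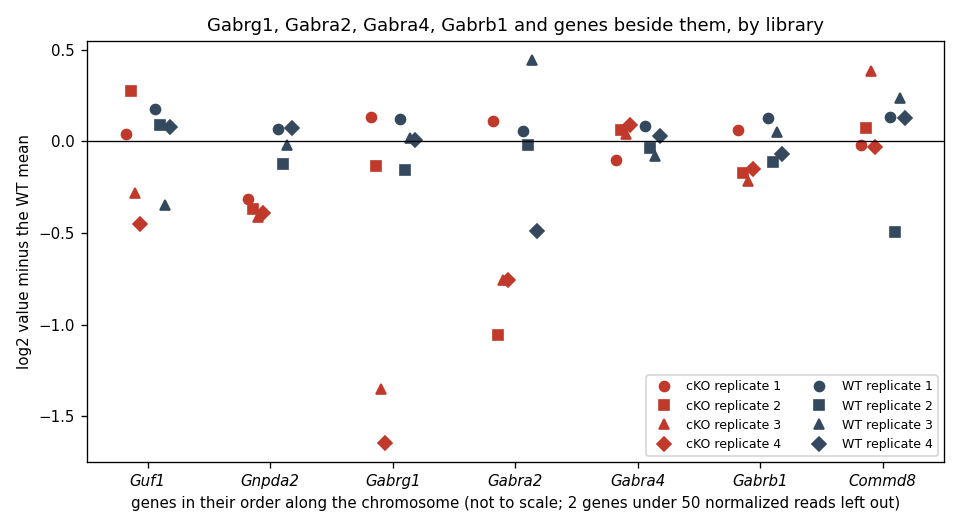
Log2 value of each library minus the WT mean, for the 4 neighbouring subunit genes and 3 genes beside them, in their order along the chromosome (not to scale). Shapes mark the replicate. For Gabra2, cKO replicates 2, 3 and 4 lie at −1.05, −0.75 and −0.75 while replicate 1 lies at 0.11, and for Gabrg1 replicates 3 and 4 lie at −1.35 and −1.65.

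Functional GABA-B receptors need both subunits, Gabbr1 to bind GABA and Gabbr2 to reach the surface and engage the G protein. Gabbr2 had 10375, 10860.4, 12126 and 13530.3 normalized reads in cKO, against 8137, 8966, 11958 and 9203 in WT. It was the member with the highest log2 fold change, 0.30 (SE 0.123, unadjusted p = 0.0339, adjusted p = 0.540), and WT replicate 3 alone of the WT libraries reached the cKO range. With the neuron markers as a term the log2 fold change was 0.07 (unadjusted p = 0.508), and the unadjusted p was under 0.05 in 10 of 18 alternative settings. Gabbr1 had 23486, 26169, 27235 and 28556 normalized reads in cKO, against 23188, 24376, 25663 and 24085 in WT. Its groups overlapped, with cKO replicate 1 among the WT libraries (log2 fold change 0.11, SE 0.073, unadjusted p = 0.153).

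The KCTD proteins are auxiliary subunits of the GABA-B receptor that shape the onset and desensitization of its response. Kctd12 had 9949 ± 476 normalized reads in cKO and 9159.6 ± 744 in WT (log2 fold change 0.12, SE 0.075). WT replicate 3 stood apart from the other WT libraries at 10273. A gene on the opposite strand, Gm26778, covers 62.8% of the exon bases of Kctd12, so its reads could be mixed with those of Kctd12 if strand was not used. Kctd16 had 842 ± 134 in cKO and 850.4 ± 122 in WT, and Kctd8, the least expressed member per length, 242 ± 20.7 in cKO and 228 ± 35.8 in WT (SD, n = 4 each throughout). Neither differed by more than its spread.

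Of the scaffold and auxiliary proteins, 4 of 5 had a higher mean in cKO, of which Plcl1 turned lower with the choroid plexus or the neuron markers as a term, and none reached an unadjusted p of 0.05. Iqsec3, a synaptic exchange factor for ARF that binds gephyrin, had 10228, 9354, 9576 and 11185 normalized reads in cKO, against 9014, 8554, 9695 and 9313 in WT. WT replicate 3 lay above cKO replicates 2 and 3, so the groups overlapped (log2 fold change 0.14, SE 0.076, unadjusted p = 0.0954). Gphn, which encodes gephyrin, the lattice-forming scaffold itself, ranged from 2404 to 2733 in cKO and from 2194 to 2504.5 in WT (log2 fold change 0.15, SE 0.077, unadjusted p = 0.0725). Lhfpl4, a transmembrane partner that gamma-containing receptors need in order to cluster, ranged from 5576 to 5970.4 in cKO and from 4679 to 5712 in WT (log2 fold change 0.17, SE 0.076, unadjusted p = 0.0527). Shisa7, an auxiliary subunit of GABA-A receptors, had a log2 fold change of −0.07 (SE 0.105). Plcl1, which binds GABARAP and helps bring receptors to the surface, had one of 0.05 (SE 0.147).

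The GABARAP family of small ubiquitin-like proteins was first found through its binding to GABA-A receptor gamma subunits, and it also serves vesicle trafficking and autophagy. Gabarapl1 and Gabarapl2 were higher in every cKO library than in any WT library, by small margins, and Gabarapl2 overlapped with quantile normalization. The stretch of promoter from position −250 to −51 relative to the start of each is shown because they are the only members above WT without overlap. It comes from RefSeq (GRCm38.p6), 5′ to 3′ on the gene's strand, with CpG dinucleotides in capitals, at chr6:129532942-129533141 (plus strand) for Gabarapl1 and chr8:111940453-111940652 (plus strand) for Gabarapl2.
Gabarapl1: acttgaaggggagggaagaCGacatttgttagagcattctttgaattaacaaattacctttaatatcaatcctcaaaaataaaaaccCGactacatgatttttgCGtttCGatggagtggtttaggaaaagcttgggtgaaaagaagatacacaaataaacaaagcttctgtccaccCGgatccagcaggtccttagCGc
Gabarapl2: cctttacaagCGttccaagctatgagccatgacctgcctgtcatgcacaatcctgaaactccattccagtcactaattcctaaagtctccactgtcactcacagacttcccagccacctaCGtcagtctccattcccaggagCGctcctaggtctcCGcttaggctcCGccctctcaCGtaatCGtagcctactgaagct
The windows hold 6 and 7 CpG and have a GC content of 39.5% and 52.5%. Over the same window of 32851 RefSeq promoters the median is 4 CpG, and 57.8% and 61.7% of promoters have fewer than these. Neither window holds CACGTG, a form of the E-box that 4.34% of these promoters hold, or TGACGTCA, the full cAMP response element that 0.828% hold. Both motifs read the same on either strand.

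Gabarapl1 had 22790.0, 23548, 26110.4 and 24554 normalized reads in cKO replicates 1 to 4, against 21144, 21314, 22037 and 21453 in WT replicates 1 to 4. The WT libraries were tightly grouped and the lowest cKO library lay above them (log2 fold change 0.17, SE 0.063, unadjusted p = 0.0196, adjusted p = 0.515). The unadjusted p was under 0.05 in 15 of 18 alternative settings, and with the neuron markers as a term it was 0.130 at a log2 fold change of 0.10. A transcript on the opposite strand, 1700101I11Rik, overlaps 28.3% of the exon bases of Gabarapl1 but had a mean of 86.0 normalized reads. Gabarapl2 had 5936, 6272, 6243 and 5951 in cKO, against 5657, 5660.1, 5282 and 5475 in WT (log2 fold change 0.14, SE 0.062, unadjusted p = 0.0407, adjusted p = 0.563). Here too the groups were separate, with 8 of 18 alternative settings under an unadjusted p of 0.05. Gabarap, the founding member, had 5566 ± 179 in cKO and 5577 ± 449 in WT (SD, n = 4 each; log2 fold change 0.00, SE 0.075).

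GABA is taken back up by membrane transporters and broken down in mitochondria. All 3 genes here had a higher mean in cKO, with log2 fold changes of 0.08 to 0.20, and none reached an unadjusted p of 0.05. With the neuron markers as a term, the log2 fold changes were 0.02 for Slc6a11, 0.06 for Abat and −0.07 for Aldh5a1. Abat, the GABA transaminase that starts the breakdown, had 9484, 10937, 10617 and 11731 normalized reads in cKO, against 8506, 8863, 10644 and 9749.5 in WT. WT replicates 3 and 4 lay among the cKO libraries (log2 fold change 0.18, SE 0.091, unadjusted p = 0.0745). Slc6a11, a GABA transporter found mainly on astrocytes, ranged from 4904 to 6311 in cKO and from 4322 to 5861 in WT (log2 fold change 0.20, SE 0.114). Summed astrocyte markers, 12 of 12 detected with none at 0, ranged from 225530 to 236635 in cKO and from 188344 to 244415 in WT. Their part in the values of Slc6a11 was not tested. Aldh5a1, which completes the route to succinate, ranged from 4703 to 5583 in cKO and from 4301 to 5375 in WT (log2 fold change 0.08, SE 0.094).

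The cation-chloride cotransporters set the chloride gradient on which GABA-A currents run: Slc12a2 (NKCC1) brings chloride in, and Slc12a5 (KCC2), confined largely to neurons, carries it out. Slc12a2 (ENSMUSG00000024597) had 3747, 3481, 3320.2 and 3760.3 normalized reads in cKO replicates 1 to 4, against 4531, 6064, 4468 and 5484 in WT replicates 1 to 4. Every cKO library lay below every WT library, and the cKO mean was 69.6% of the WT mean. The log2 fold change was −0.51 (SE 0.105, 95% interval −0.74 to −0.28, unadjusted p = 0.000569), with an adjusted p of 0.298 over all tested genes. In the authors' deposited table its p-value was 1.32e-06 and its FDR 0.000955. In all 18 alternative settings the sign was the same and the unadjusted p was under 0.05, with log2 fold changes of −0.64 to −0.42 and adjusted p of 0.175 to 0.719.

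Slc12a5 had 9145, 8432, 9508 and 11859 normalized reads in cKO, against 6491, 8067, 10759.8 and 8552 in WT. WT replicate 3 was above 3 of the cKO libraries and the groups overlapped (log2 fold change 0.21, SE 0.149, unadjusted p = 0.182, adjusted p = 0.695). With the neuron markers as a term in the fit the log2 fold change of Slc12a5 was −0.04. The ratio of Slc12a5 to Slc12a2 normalized reads within a library was 2.44, 2.42, 2.86 and 3.15 in cKO replicates 1 to 4, against 1.43, 1.33, 2.41 and 1.56 in WT replicates 1 to 4. The ranges only just failed to overlap, with WT replicate 3 next to cKO replicate 2. On the log2 scale the ratio averaged 1.43 ± 0.185 in cKO and 0.71 ± 0.384 in WT (SD, n = 4 each), given as a description with no test.

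**Figure D3:**
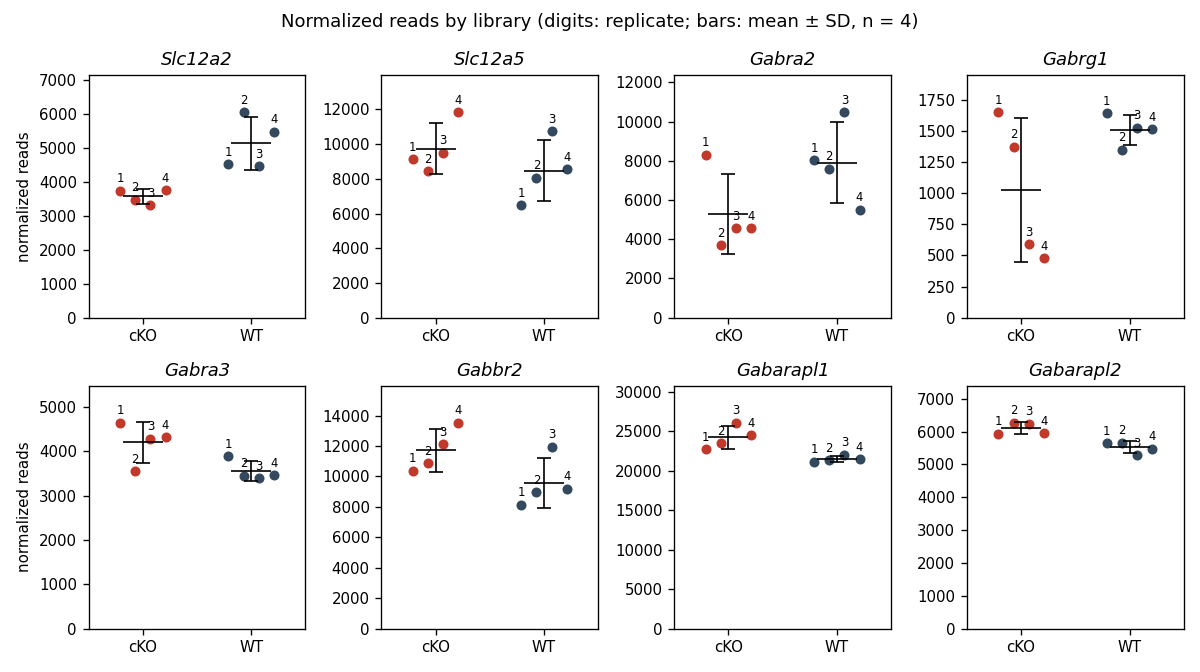
Normalized reads of 8 members in each library, with cKO left of WT, digits for the replicate, and bars for the mean ± SD (n = 4); each axis starts at 0. The cKO libraries of Slc12a2 all lie below the WT libraries, those of Gabarapl1 and Gabarapl2 all lie above (Gabarapl2 overlaps with quantile normalization), and the groups overlap for the other 5 genes.

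Slc12a2 is also known to be abundant in choroid plexus epithelium and in the oligodendrocyte lineage, and markers of both varied between libraries. The choroid plexus markers, 12 of 12 detected with none at 0, summed to 57630, 22758, 71139 and 19428 normalized reads in cKO replicates 1 to 4, against 12342, 240761, 35844 and 113695 in WT. All 12 had a lower mean log2 value in cKO, with a median log2 fold change of −0.66, as had all 5 ependyma markers, which summed to 951 to 1328 normalized reads in cKO and 1057 to 1881 in WT. WT replicates 2 and 4, with the highest choroid plexus sums, also had the highest Slc12a2. The summed ranges of the choroid plexus and of the ependyma markers overlapped between the groups. The oligodendrocyte markers, 11 of 11 detected with none at 0, summed to 104770, 147660, 134595 and 164098 in cKO, against 188196, 127913, 184751 and 156513 in WT, and all 11 had a lower mean log2 value in cKO. With the choroid plexus markers as a term in the fit the log2 fold change of Slc12a2 was −0.45 (unadjusted p = 0.000889), with the oligodendrocyte markers −0.64 (0.000386) and with the neuron markers −0.42 (0.00792). Beyond these fits, the part of tissue content in the result was not tested. Ependyma content entered no fit.

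**Figure D4:**
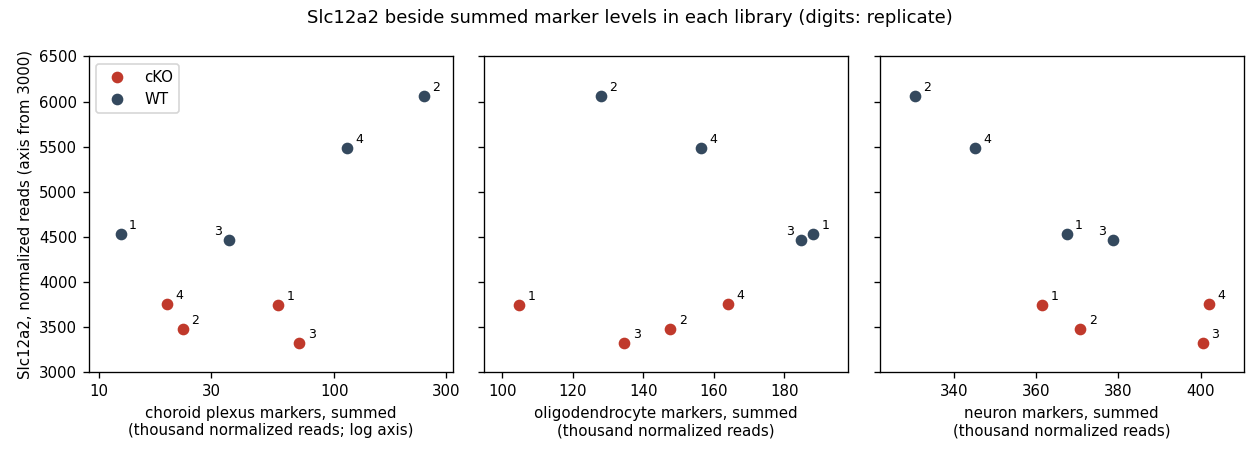
Slc12a2 in normalized reads (on an axis that does not start at 0) against the summed level of 3 marker lists in each library (log axis for choroid plexus). The cKO libraries lie at 3320 to 3760 and the WT libraries at 4468 to 6064.

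Levels were compared between members per kb of merged exon, so that long and short genes could be set side by side. Gabarapl1 stood at the top with 12047 ± 713 normalized reads per kb in cKO and 10674 ± 193 in WT (SD, n = 4 each). The next in WT were Gabbr1 (3395 ± 277 in cKO and 3133 ± 132 in WT), Gabarap (3018 ± 97.1 in cKO and 3025 ± 243 in WT) and Gabra5 (2711 ± 462 in cKO and 2823 ± 418 in WT), each overlapping its neighbour in the order. Gabarapl2 followed without overlap in WT, at 2624 ± 78.2 in cKO and 2374 ± 77.3 in WT. From Kctd12 down to Gphn each member overlapped the next in the order of WT means, from 1512 to 625 normalized reads per kb in WT, so that this stretch has no firm order. Slc12a2 came below them at 328 ± 19.6 in cKO and 470.4 ± 70.9 in WT, with a range that overlapped that of Gabrd in cKO (361 ± 75.4 per kb) and lay above it in WT (354 ± 21.6 per kb). At the low end were Gabrg1 (130.0 ± 73.4 in cKO and 191 ± 15.2 in WT), Gabrg3 (100.4 ± 11.9 in cKO and 97.6 ± 6.85 in WT) and Kctd8 (71.9 ± 6.12 in cKO and 67.6 ± 10.6 in WT). Merged exon lengths come from the annotation at hand rather than the authors' counting, and isoforms that CA1 does not use lengthen some genes.

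**Figure D5:**
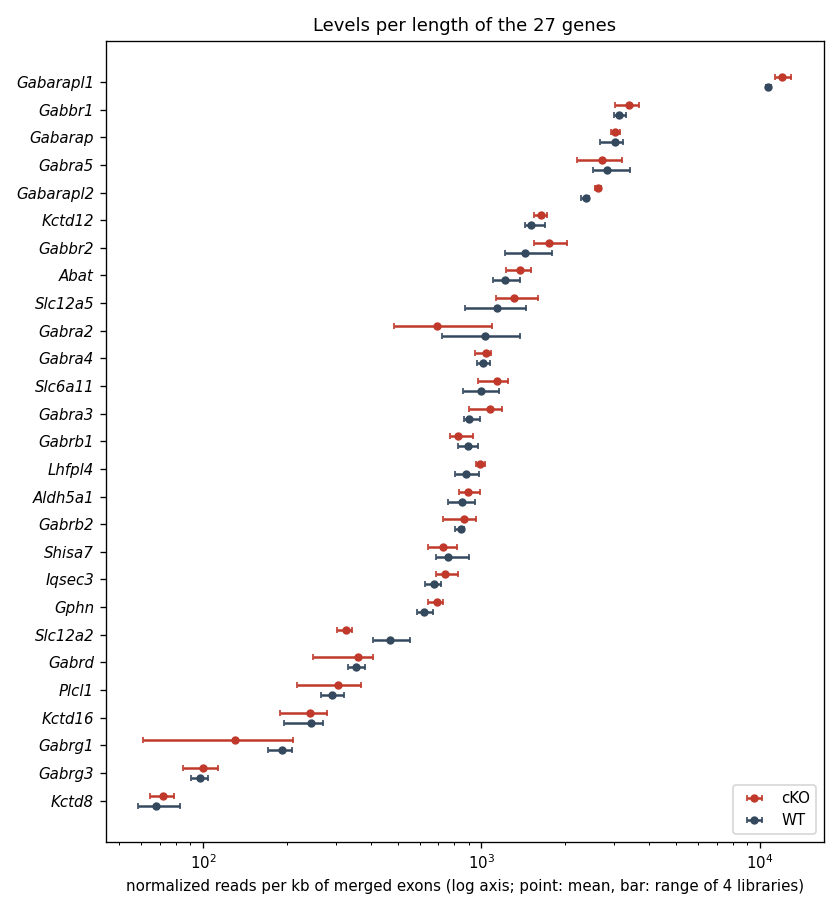
Normalized reads per kb of merged exon on a log axis for the 27 genes, in the order of the WT mean; points are means and bars the range of 4 libraries, cKO above WT. Gabarapl1 lies at the top and Kctd8 at the bottom in both groups, and the ranges of Slc12a2 do not touch.

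The libraries also differed in how they ranked across members. WT replicate 3 had the highest level in its group for 19 of the 27 genes, and cKO replicate 4 for 15, while cKO replicates 1 and 2 had the lowest for 11 each. The 27 genes together summed to 185169, 182609, 188219 and 200835 normalized reads in cKO replicates 1 to 4, against 174014, 174765, 196563 and 177371 in WT. WT replicate 3 was above 3 of the 4 cKO libraries in this sum and had the most neuron markers of the WT group, at 378704 normalized reads. With the neuron markers as a term in the fit the median log2 fold change of the members was 0.01, and with the oligodendrocyte markers 0.20, against 0.08 without either.

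Other genes of GABA signalling were summarised from a separate list of 41 genes. Among them were GABA synthesis and vesicle loading, further receptor partners, GABA-B effector channels and the kinases of chloride transport. The subunit genes Gabre, Gabrq, Gabrr1, Gabrr2 and Gabrr3 were also among them. The table held 39 of them, and 26 had a higher and 13 a lower mean log2 value in cKO (median log2 fold change 0.12). The share higher was 66.7%, against 47.3% of all tested genes and 55.5% of those with at least 200 normalized reads. The medians of those sets were −0.02 and 0.02. Some listed genes lay near the floor, such as Gabrr1 with means of 4.63 normalized reads in cKO and 1.54 in WT. At an unadjusted p of 0.05, 2 were higher and 1 lower, a share of 7.69% against 8.67% of all tested genes, and none passed an adjusted p of 0.05. The groups did not overlap for 2 of them, a share of 5.13% against 4.92% of all tested genes. Kcnj9, a subunit of the potassium channels that GABA-B receptors open, had 4748, 4345, 5214 and 5127 normalized reads in cKO, against 3838, 4002, 4276 and 4089 in WT. Each cKO library was above each WT library (log2 fold change 0.26, SE 0.078, unadjusted p = 0.0071, adjusted p = 0.496). Oxsr1, a kinase that activates NKCC1 and restrains KCC2, had 2466, 2494, 2525 and 2632 in cKO, against 3128, 2650.3, 2980.5 and 2893 in WT. Each cKO library was below each WT library (log2 fold change −0.20, SE 0.074, unadjusted p = 0.0199, adjusted p = 0.515). Nsf, a membrane fusion ATPase that binds GABARAP and GABA-A beta subunits, had 34279 ± 2747 in cKO and 28294 ± 4282 in WT, with overlap (log2 fold change 0.29, unadjusted p = 0.024). Slc12a4, the widely expressed cotransporter KCC1, had a log2 fold change of −0.25 (unadjusted p = 0.0605), and Dynll2, a dynein light chain that binds gephyrin, one of 0.14 (unadjusted p = 0.0717). Interneuron markers, 20 of 20 detected with none at 0, summed to 37845 to 49946 in cKO and 36991 to 46389 in WT.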

How the data were processed

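The submitters' processing notes name the build mm9 and the tools STAR, StringTie and DESeq2. The sources used here do not give the tools' roles, the annotation or how the counting treated strand. The labels name a stranded mRNA kit. The authors deposited a log2 value per gene and library, with their log2 fold change, p-value and FDR. The deposited log2 values are log2 of reads over a size factor plus a pseudocount of 1: whole reads were recovered for 100% of values (tolerance 0.001 reads). The main test was limma 3.58.1 (R 4.3.3; trend, robust, no covariate) on those values, cKO against WT, over the 26135 genes that reached 1 normalized read in 4 or more libraries, with Benjamini-Hochberg adjustment and a threshold of 0.05. The code was tested on simulated data.

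The members, gene lists and tests were chosen with earlier results of these data known. Values in every library are given for members with an unadjusted p under 0.05, without overlap, past the authors' FDR, or with the highest mean of their role, and for Gabra2, chosen after its values were seen; 5 other pathway genes were taken by smallest p. Alternatives left out each library, or used limma-voom on recovered reads, array weights, a replicate block, quantile normalization, another filter (none, or 10 normalized reads) or a pseudocount of 0.1. Fits with the mean log2 marker level as a covariate were added after seeing the data. The same replicate number in both groups did not pair libraries.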

Additional observations from a re-analysis of the deposited data

Results flagged for a closer look

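Of 56 groups examined (27 genes and the chloride transporter ratio, in cKO and in WT), 3 had 1 library farther from the others than Dixon's 95% critical value for 4 samples; chance gives about 1 in 20. For Gabrd, cKO replicate 1 was low with 716 normalized reads, while the other cKO libraries had 1108 to 1178. For Gabra3, WT replicate 1 was high with 3894 normalized reads, while the other WT libraries had 3399 to 3471. For Kctd12, WT replicate 3 was high with 10273 normalized reads, while the other WT libraries had 8711 to 8847. The cause was not tested.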

How the results depend on the processing

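No member passed an adjusted p of 0.05 in any of 18 alternatives, and 5 genes of all tested did so with the main settings (2 to 8 in the alternatives). The count of members at an unadjusted p under 0.05 was 5 (8.67% of all tested genes). It was 8 with array weights (11.5% of all), 8 with the replicate block (9.33%), 2 with the choroid plexus covariate (7.87%), 12 with the oligodendrocyte covariate (12.3%), 2 with the neuron covariate (6.25%) and 1 to 9 with 1 library left out (6.33% to 11.3%). Same-numbered libraries did not deviate together (correlations of −0.040 to 0.029), so the block has no basis in the design. Members without overlap numbered 3, 2 with quantile normalization (4.45% of all tested genes), where Gabarapl2 overlapped, and 3 to 7 with 1 library left out, where 6.89% to 10.97% of all tested genes had none. The median log2 fold change was 0.08, 0.2012 with the oligodendrocyte covariate and 0.013 with the neuron covariate, and 0.03 to 0.13 with 1 library left out. The log2 difference in chloride transporter ratio was 0.72, and 0.63 to 0.91 with 1 library left out.

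Members turned sign, most of them near 0 but Slc12a5 at 0.21 with the main settings, and the cause was not tested. With quantile normalization, which moved the median of all tested genes from −0.018 to 0.0079, Gabra4 was −0.0231, Gabrb2 −0.0157, Gabrd −0.0049 and Gabarap −0.0432. With array weights Gabarap was −0.0172. With the choroid plexus covariate Gabrd was −0.0156, Kctd16 0.0257 and Plcl1 −0.0096. With the oligodendrocyte covariate Gabra5 was 0.0692, Kctd16 0.0432 and Gabarap −0.0526. With the neuron covariate Gabrb2 was −0.0440, Gabrg3 −0.0456, Gabrd −0.1877, Plcl1 −0.1601, Aldh5a1 −0.0746 and Slc12a5 −0.0369. With 1 library left out, the range was −0.0010 to 0.0659 for Gabra4, −0.1478 to 0.0325 for Gabra5, −0.0230 to 0.1078 for Gabrb2, −0.0244 to 0.1145 for Gabrg3, −0.0684 to 0.1710 for Gabrd, −0.1207 to 0.0975 for Kctd16, −0.1251 to 0.0186 for Shisa7, −0.0519 to 0.2055 for Plcl1 and −0.0583 to 0.0331 for Gabarap.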
